A study of Mus musculus with 6 samples.

Results

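The nuclear genes of the mitochondrial respiratory chain and of ATP synthase were followed in healing bone of mice that lack Cyp24a1 and of heterozygous mice. Cyp24a1 is the enzyme that inactivates vitamin D metabolites. Members were the probe sets whose single gene symbol in the platform annotation starts with Ndufa, Ndufb, Ndufs, Ndufv, Uqcr, Cox4 to Cox8 or Atp5, or is Sdha to Sdhd, with the Ndufaf assembly factors left out. They comprised 163 probe sets of 80 genes, out of 18193 genes with a probe set of their own on the array, and each gene was represented by its brightest probe set (the largest average of the 6 arrays). By complex, 32 genes belonged to complex I, 4 to complex II, 8 to complex III, 19 to complex IV and 17 to ATP synthase. Ndufa4 and its relative Ndufa4l2 were counted with complex IV, where the Ndufa4 protein resides. Subunits whose probe sets list several symbols, among them Ndufs6 and Ndufa11, are not analysed here, and subunits with other symbols are no members and appear only in the companion lists.

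The Cyp24a1 (-/-) group had 3 arrays and the Cyp24a1 (+/-) group had 3, so that the control animals also carry an inactive copy of the gene and no wild-type sample was compared. All mice were 12 weeks old, of a C57BL6J x 129SV mixed background, and had the tibia cut and held by an intramedullary rod. The repair tissue (callus) was collected on day 14, and labelled copies of its RNA were hybridised to an Affymetrix mouse array. Values are on a log2 scale, so that a difference of 1 is a 2-fold change. The labels do not say that each array came from a separate mouse, so p-values measure only the spread between these samples, which may be technical. Array medians lay between 4.55 and 4.59. The number of arrays limits the precision.

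Bone matrix transcripts were present on every array, with the collagen gene Col1a1 between 13.57 and 14.28. Of the 11 listed cartilage genes, the collagen gene Col2a1 lay between 7.04 and 9.76, Comp between 9.17 and 10.03 and Col11a1 between 8.82 and 9.81. Only 3 of the 11, Matn1, Hapln1 and Ihh, did not exceed 3.52 on any array. That level is the highest reached by transcripts of the X-inactivation gene Xist and of Y-linked genes on arrays that lack them (1.77 to 3.52), and is called the level of silent transcripts here. Skeletal muscle transcripts were abundant, with the actin gene Acta1 between 14.39 and 14.49, close to the highest value in the table. Null replicate 1 and heterozygous replicate 3 were poor in bone marrow transcripts. With each gene centred on its own average, their means of the 12 neutrophil granule genes were -2.92 and -3.45, against 1.33 to 1.94 on the other 4 arrays. The 9 measured erythroid genes gave -2.93 and -2.46, against 0.78 to 1.69.

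The respiratory chain passes electrons from NADH and succinate to oxygen and pumps protons across the inner mitochondrial membrane, and ATP synthase uses the returning protons to make ATP. Complex I oxidises NADH, complex II oxidises succinate and is also an enzyme of the citric acid cycle, complex III passes electrons to cytochrome c, and complex IV, cytochrome c oxidase, reduces oxygen. Striated muscle is rich in these complexes and carries its own isoforms of several cytochrome c oxidase subunits, while neutrophils hold few mitochondria and mature red cells none.

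No subunit gene was called different between null and heterozygous callus. Of the 80 members, 0 had an adjusted p under 0.05 in limma, where 0% of the 45037 probe sets passed, and the lowest adjusted p of a member was 0.999. At an unadjusted p under 0.05 the limma count was also 0 of 80, against a background of 4.49% of all genes, and a plain equal-variance test gave 0 of 80 against 4.89%. The largest difference in either direction was 1.36-fold. The 95% interval of a difference, unadjusted for the number of genes, had a median half-width of 0.34, and for 62 of the 80 members it lay wholly within a 1.5-fold change either way. Groups did not overlap for 3 members, where 10.1% of all genes had no overlap. Of these, 1 was higher in null callus (background 4.14%) and 2 were lower (background 5.99%).

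The members' small differences lay mostly on the same side. Their null minus heterozygous difference was under 0 for 63 of 80, against 50.3% of all genes, with a median of -0.058 for the members and -0.0017 for all genes. Without the members at the level of silent transcripts the count was 62 of 78. The members are brightly measured genes, 68 of them at a mean level of 10 or above. Of those 68, 57 had a difference under 0, and their median was -0.061. Of the 872 genes of the array at a mean level of 10 or above, 57.2% had a difference under 0, and their median was -0.034. With arrays weighted by their quality, 38 of 80 members were under 0, against 51.6% of all genes in that fit, so no lean to lower values was seen there. Leaving out null replicate 1 gave 39 members under 0, and leaving out heterozygous replicate 2 gave 41. The shares of all genes in those 2 fits are not given here, so whether the members still leaned relative to all genes cannot be read from these counts. Null replicate 1 and heterozygous replicate 1 had high Xist and low Y-linked transcripts, and the other 4 arrays the reverse. This class was split evenly, with 1 array high in Xist in each group. A block for it in the fit therefore cannot change the differences, and the count of 63 under it was fixed in advance. Between the 2 arrays high in Xist, 1 a group, 64 of 80 members were under 0 with a median of -0.20. Over all genes, 49.8% were under 0 between those 2 arrays, with a median of 0.00028. Among the other 4 arrays, 2 a group, 43 of 80 members were under 0 with a median of -0.014. That was near the values of all genes on those 4 arrays, 52.4% and -0.0134. The part of sex in the members' values was not tested further. In callus RNA, fewer cells of a type and less RNA per cell cannot be told apart.

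**Figure D1:**
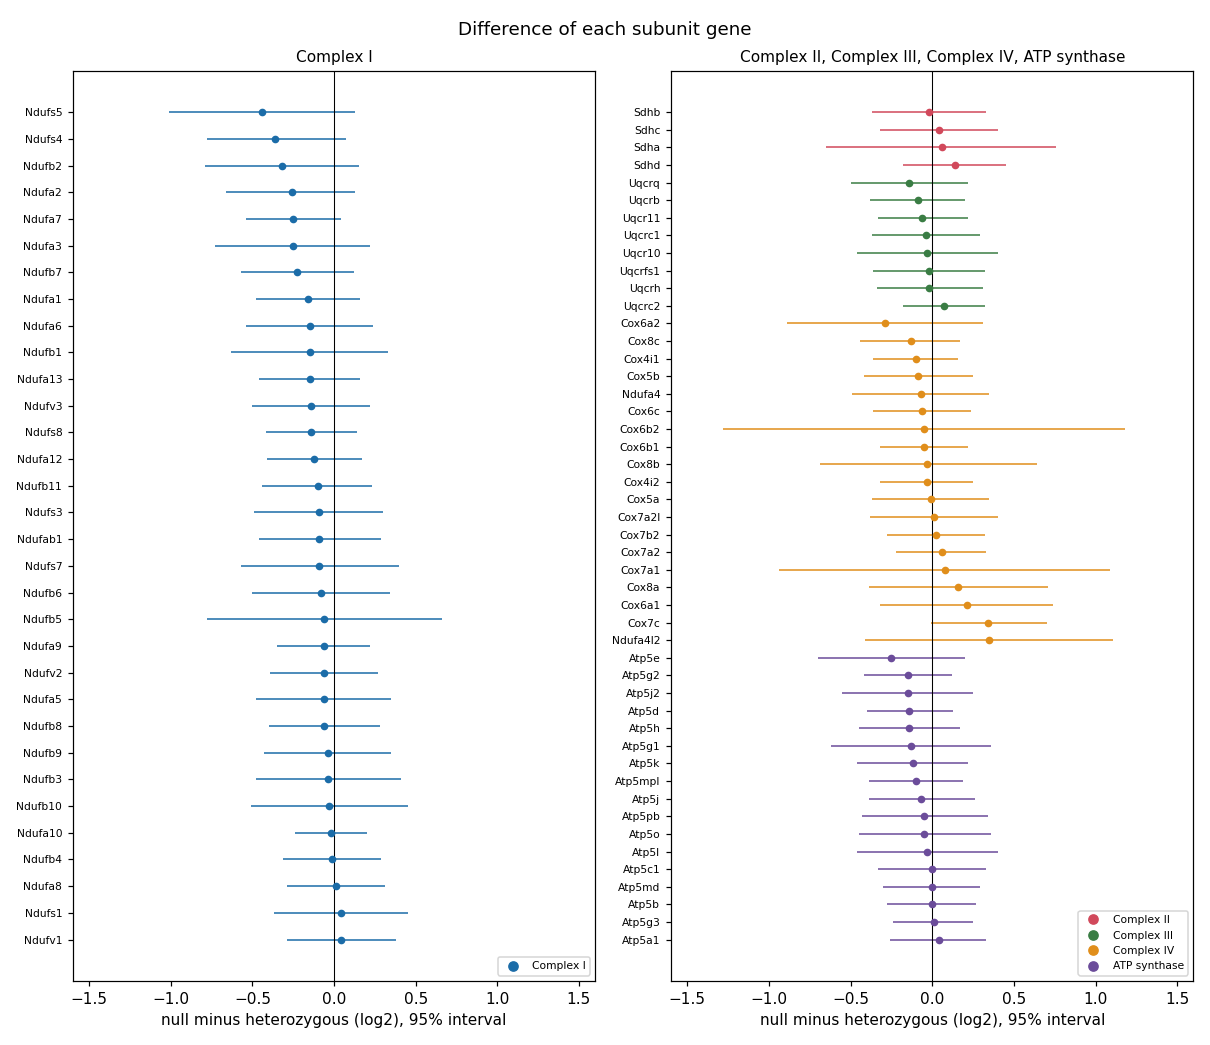
Null minus heterozygous difference (log2, horizontal axis) of each of the 80 subunit genes (vertical axis), with 3 arrays a group; points are limma estimates, bars their unadjusted 95% intervals, and colours the complexes. All intervals include 0, and 29 of 32 complex I genes lie left of it.

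Complex I, the entry point for electrons from NADH, had the lowest median difference of the complexes. Its median difference was -0.089 (from -0.19 to -0.021 when single arrays were left out), and 29 of its 32 genes had a difference under 0. That count was 19 with array weights, where 51.6% of all genes were under 0. It was 18 when null replicate 1 was left out, a fit whose share of all genes is not given here. In the unweighted fit of all arrays, 25 of the 26 accessory subunits, which surround the catalytic core, were under 0 with a median of -0.11. Ndufb4, not above the level of silent transcripts, is counted in both the 29 and the 25. The 6 core genes had a median of -0.072.

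Ndufs5, an accessory subunit facing the intermembrane space, measured 10.41, 10.38 and 10.96 on the null arrays and 11.20, 11.26 and 10.61 on the heterozygous arrays. The groups overlapped, because heterozygous replicate 3 lay below null replicate 3. The difference was -0.44 (SE 0.24, unadjusted p = 0.111 and adjusted p = 0.999 in limma). Ndufs4, an accessory subunit whose loss causes a mitochondrial disease in people and mice, measured 9.47, 9.81 and 9.99 in null callus, against 10.20, 10.27 and 9.88 in heterozygous mice. Here too only heterozygous replicate 3 fell among the null values, and all 4 probe sets of the gene had a difference under 0. The difference was -0.36 (SE 0.18).

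Ndufa7, an accessory subunit of the matrix arm, was lower on each null array than on any heterozygous array, at 10.93, 11.12 and 11.05 against 11.27, 11.44 and 11.14. Its difference was -0.25 (SE 0.12, unadjusted p = 0.0793 and adjusted p = 0.999 in limma). All 5 of its probe sets had a difference under 0 and no overlap of the groups. The dimmer ones had an unadjusted p of 0.0711, 0.0486, 0.0427 and 0.0342 in limma, each with adjusted p = 0.999, so the call at 0.05 depended on the probe set. The core subunit gene Ndufs8 also had no overlap, but its null values of 11.56, 11.29 and 11.54 came close to the heterozygous 11.56, 11.67 and 11.57. Ndufv1, which carries the NADH-binding site, averaged 11.02 ± 0.17 (SD, n = 3) in null callus, against 10.98 ± 0.16 (SD, n = 3) in heterozygous mice, a difference of 0.04 (SE 0.14). The iron-sulfur subunit gene Ndufs1 likewise differed by 0.04 (SE 0.17). The values of Ndufv1 and of Ndufs1 overlapped between groups. The single probe set of Ndufb4 lay at 2.73 to 3.06, not above the level of silent transcripts, and so gives no measure of that gene.

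Complex II had 3 of its 4 genes at a difference above 0 and a median of 0.048, which ran from -0.072 to 0.19 when single arrays were left out. Sdha, the flavoprotein that oxidises succinate, measured 10.09, 11.01 and 10.95 in null callus, against 10.70, 10.92 and 10.25 in heterozygous mice. Its lowest values were on null replicate 1 and heterozygous replicate 3, so that the spread within each group far exceeded the difference of 0.06 (SE 0.29). The iron-sulfur subunit gene Sdhb averaged 11.80 ± 0.22 (SD, n = 3) and 11.82 ± 0.13 (SD, n = 3). The membrane anchor genes Sdhc and Sdhd differed by 0.04 (SE 0.15) and 0.14 (SE 0.13), and the 2 probe sets of Sdhc had opposite directions. On all 4 genes null replicate 1 had the lowest value.

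In complex III, 7 of 8 genes had a difference under 0, with a median of -0.034 and a range from -0.14 to 0.07. The median was 0.0059 without null replicate 1. Uqcrfs1, the Rieske iron-sulfur protein, averaged 11.57 ± 0.24 (SD, n = 3) in null callus, against 11.59 ± 0.04 (SD, n = 3) in heterozygous mice. The core protein genes Uqcrc1 and Uqcrc2 differed by -0.04 (SE 0.14) and 0.07 (SE 0.10), and the small subunit genes Uqcrb and Uqcrq by -0.09 (SE 0.12) and -0.14 (SE 0.15). For Uqcrq, 2 of 4 probe sets had the other direction.

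ATP synthase genes differed by -0.25 to 0.04, with 15 of 17 under 0 and a median of -0.067, or -0.0018 without heterozygous replicate 2. The catalytic subunit genes Atp5a1 and Atp5b, which form the ATP-making head, differed by 0.04 (SE 0.12) and -0.0035 (SE 0.11). Atp5b measured 12.50, 12.60 and 12.80 in null callus, against 12.62, 12.61 and 12.67 in heterozygous mice, so the heterozygous values all lay inside the null range. The largest difference was that of Atp5e, the epsilon subunit of the rotor, at 10.76, 11.18 and 11.31 against 11.37, 11.53 and 11.09 (difference -0.25, SE 0.19). The delta subunit gene Atp5d differed by -0.14 (SE 0.11). Atp5g1, Atp5g2 and Atp5g3 encode the same mature c subunit of the membrane ring, and differed by -0.13, -0.15 and 0.01. For Atp5g2, 2 of 3 probe sets had the other direction. The 4 peripheral stalk genes, which hold the head still, lay between -0.14 and -0.05.

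Cytochrome c oxidase was the most mixed complex, with 11 of 19 genes under 0 and a median of -0.025, which lay above 0 without null replicate 1 (0.052), heterozygous replicate 1 (0.0028) or heterozygous replicate 2 (0.021). Among its general subunit genes, Cox4i1 averaged 12.52 ± 0.12 (SD, n = 3) in null callus, against 12.62 ± 0.05 (SD, n = 3) in heterozygous mice, and Cox6b1 averaged 12.92 ± 0.08 and 12.97 ± 0.12 (SD, n = 3 each). Cox7c had the lowest unadjusted p of all members. It measured 4.64, 4.60 and 5.02 in null callus, against 4.34, 4.54 and 4.34 in heterozygous mice, without overlap, a difference of 0.34 (SE 0.15, unadjusted p = 0.0548 and adjusted p = 0.999 in limma). Its other probe set lay between 2.54 and 2.88, under the level of silent transcripts, and whether the brighter probe set reports the coding transcript of this widely used subunit was not tested. Cox4i2, an alternative form of subunit 4, was low at 4.32 to 4.64 and differed by -0.03 (SE 0.12). The testis isoform gene Cox7b2 was not above silent transcripts on any array, and Cox8c lay between 6.02 and 6.45.

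For subunits 6a and 8, the muscle isoforms and their general counterparts went in opposite directions across arrays. Cox6a2, the heart and skeletal muscle form of subunit 6a, measured 11.80, 12.37 and 12.31 in null callus, against 12.60, 12.76 and 11.99 in heterozygous mice. It was lowest on null replicate 1 and heterozygous replicate 3, and its difference between groups was -0.29 (SE 0.25). Cox6a1, the general form, measured 12.58, 12.05 and 12.08 in null callus, against 11.91, 11.77 and 12.40 in heterozygous mice, highest on the same 2 arrays (difference 0.21, SE 0.22). Expressed as the log2 ratio of Cox6a2 to Cox6a1 and centred on its mean, the pair gave -0.95, 0.14 and 0.06 on null and 0.52, 0.81 and -0.58 on heterozygous arrays. The group means of this ratio were -0.25 ± 0.61 (SD, n = 3) and 0.25 ± 0.74 (SD, n = 3), a gap smaller than the spread within either group.

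The other muscle forms were low on the same 2 arrays. The muscle form Cox7a1 measured 9.02, 10.18 and 10.29 in null callus, against 9.76, 10.33 and 9.18 in heterozygous mice, a difference of 0.08 (SE 0.42). The general form Cox7a2 stayed between 12.17 and 12.46, so the ratio of Cox7a1 to Cox7a2, -0.77 and -0.48 on the marrow-poor arrays and 0 to 0.45 elsewhere, mostly followed the muscle form. Cox7a2l, a relative that helps join complexes into supercomplexes, differed by 0.01 (SE 0.16). Cox8b, the muscle form of subunit 8, measured 10.76, 11.05 and 11.40 against 11.18, 11.52 and 10.57 (difference -0.03, SE 0.28), and the general form Cox8a measured 9.82, 9.14 and 9.13 against 9.04, 9.09 and 9.48 (difference 0.16, SE 0.23). The centred ratio of Cox8b to Cox8a was -0.86 and -0.71 on the marrow-poor arrays and 0.11 to 0.64 on the others.

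Ndufa4 and Ndufa4l2, which are not known as muscle and general forms, also moved apart. Ndufa4, a subunit bound to the oxidase, measured 11.31, 11.80 and 11.85 in null callus, against 11.71, 11.89 and 11.57 in heterozygous mice (difference -0.07, SE 0.18). Ndufa4l2, a relative known as a target of the hypoxia-inducible factor, measured 7.86, 6.91 and 7.13 against 6.75, 6.65 and 7.47, with a difference of 0.35 (SE 0.32). Its highest values were on null replicate 1 and heterozygous replicate 3, where Ndufa4 was lowest.

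**Figure D2:**
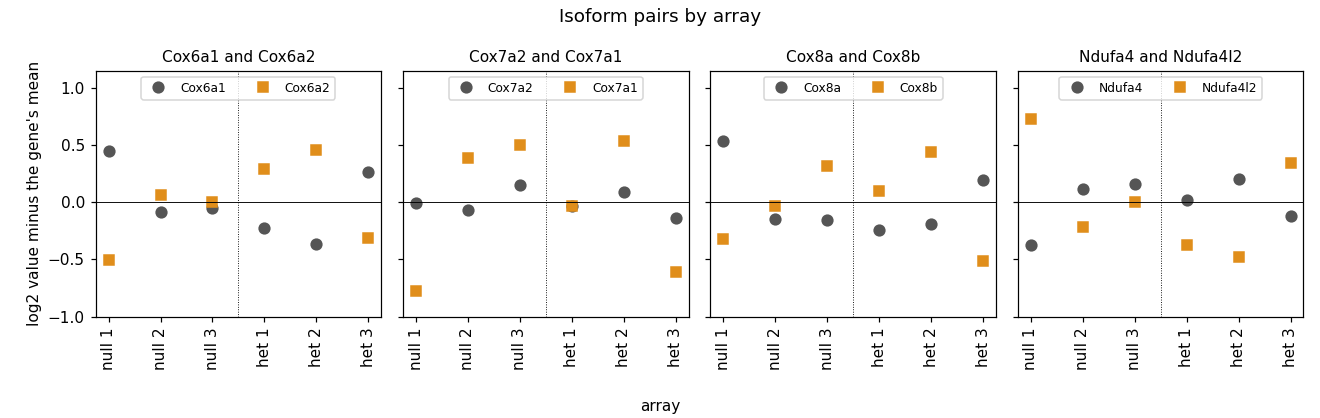
Log2 value of each isoform minus its mean over the 6 arrays (vertical axis) on each array (horizontal axis; het, heterozygous); grey circles are the general forms and orange squares the muscle forms or, in the last panel, Ndufa4l2. On null 1 and het 3 the muscle forms are low, Cox6a1 and Cox8a are high, and Ndufa4l2 is high.

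The promoters of the isoforms of subunits 6a, 7a and 8 with a matched sequence are shown because the ratios of these forms varied across arrays, and those of Sdhd and Atp5g3 because they hold several of the motifs searched. Each runs from 250 bases before to 50 bases after the gene's start, 5′ to 3′, from RefSeq on GRCm38.p6. Capitals mark matches, on either strand, to any of 6 motifs. That of NRF1 was GCGC, any 2 bases, then GCGC. That of GABP was CCGGAAG and that of YY1 was AAGATGGC. Estrogen-related receptors were searched as AAGGTCA, which shares 6 letters with the vitamin D receptor repeat named after the sequences. The E box bound by myogenic factors was CAGCTG and the TATA box was TATAAA. The sequences lie at chr5:115348909-115349208 on the minus strand for Cox6a1, chr19:7217567-7217866 on the minus strand for Cox8a, chr7:140900397-140900696 on the minus strand for Cox8b, chr7:30183921-30184220 on the plus strand for Cox7a1, chr9:79759804-79760103 on the minus strand for Cox7a2, chr9:50603800-50604099 on the minus strand for Sdhd and chr2:73911277-73911576 on the minus strand for Atp5g3.
Cox6a1: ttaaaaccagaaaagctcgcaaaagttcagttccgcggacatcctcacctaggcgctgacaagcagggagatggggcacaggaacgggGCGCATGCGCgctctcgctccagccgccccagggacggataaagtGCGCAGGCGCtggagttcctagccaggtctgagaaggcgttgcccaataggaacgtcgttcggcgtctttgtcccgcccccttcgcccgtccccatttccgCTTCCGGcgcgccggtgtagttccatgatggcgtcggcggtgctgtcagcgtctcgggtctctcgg
Cox8a: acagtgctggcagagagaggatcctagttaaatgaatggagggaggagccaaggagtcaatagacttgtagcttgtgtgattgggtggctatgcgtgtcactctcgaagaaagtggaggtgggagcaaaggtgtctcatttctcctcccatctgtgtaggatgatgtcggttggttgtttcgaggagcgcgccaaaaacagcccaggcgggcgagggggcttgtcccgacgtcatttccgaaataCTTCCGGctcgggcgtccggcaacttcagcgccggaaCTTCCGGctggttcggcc
Cox8b: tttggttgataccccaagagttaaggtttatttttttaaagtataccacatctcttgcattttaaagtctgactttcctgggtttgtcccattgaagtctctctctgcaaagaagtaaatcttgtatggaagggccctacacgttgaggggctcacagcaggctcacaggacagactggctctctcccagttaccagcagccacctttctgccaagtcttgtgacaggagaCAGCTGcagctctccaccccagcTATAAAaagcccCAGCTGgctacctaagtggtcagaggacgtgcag
Cox7a1: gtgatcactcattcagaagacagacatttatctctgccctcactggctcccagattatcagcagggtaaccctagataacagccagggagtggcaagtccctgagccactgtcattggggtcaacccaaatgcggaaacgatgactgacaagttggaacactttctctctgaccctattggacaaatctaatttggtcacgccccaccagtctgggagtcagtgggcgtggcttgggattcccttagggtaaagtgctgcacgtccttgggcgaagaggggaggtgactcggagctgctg
Cox7a2: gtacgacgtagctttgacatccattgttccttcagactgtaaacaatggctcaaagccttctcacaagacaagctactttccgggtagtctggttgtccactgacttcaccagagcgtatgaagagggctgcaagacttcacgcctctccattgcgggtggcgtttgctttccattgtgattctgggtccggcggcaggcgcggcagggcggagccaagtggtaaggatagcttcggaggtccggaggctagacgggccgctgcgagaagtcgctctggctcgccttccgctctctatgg
Sdhd: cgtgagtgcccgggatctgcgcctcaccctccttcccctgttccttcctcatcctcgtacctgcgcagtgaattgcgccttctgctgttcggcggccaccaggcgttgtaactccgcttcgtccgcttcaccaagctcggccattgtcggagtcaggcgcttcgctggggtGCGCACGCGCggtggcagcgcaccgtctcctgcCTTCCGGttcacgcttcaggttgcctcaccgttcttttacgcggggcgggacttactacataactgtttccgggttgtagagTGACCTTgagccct
Atp5g3: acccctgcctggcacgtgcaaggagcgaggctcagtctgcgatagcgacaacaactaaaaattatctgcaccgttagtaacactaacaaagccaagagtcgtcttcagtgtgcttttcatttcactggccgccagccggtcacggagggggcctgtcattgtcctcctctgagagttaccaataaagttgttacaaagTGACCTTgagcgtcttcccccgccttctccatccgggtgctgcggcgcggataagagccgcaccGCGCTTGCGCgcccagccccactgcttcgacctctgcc

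The Cox6a1 promoter held NRF1 and GABP letters and that of Cox8a held GABP letters, while that of the muscle form Cox8b held E box and TATA letters and none of the 4 sets of letters of the mitochondrial regulators. Neither Cox7a1 nor Cox7a2 held any of the capitalised motifs in this window. Promoters were matched for 65 members and not for Ndufs1, Ndufa2, Ndufb9, Sdhc, Uqcrc2, Uqcrb, Uqcrq, Cox4i1, Cox4i2, Cox6a2, Cox6c, Cox8c, Ndufa4l2, Atp5a1 and Atp5mpl. NRF1 letters occurred in 26.2% of the members and 9.61% of 17492 protein-coding genes, GABP letters in 26.2% and 12.9%, estrogen-related receptor letters in 12.3% and 4.73%, and YY1 letters in 12.3% and 3.57%. At least 1 of these 4 was found for 58.5% of members and 26.8% of genes. These factors are known regulators of nuclear genes for mitochondrial proteins. Letters of general promoter elements were no more frequent in members, at 12.3% and 14.8% for TATAAA, 44.6% and 49.2% for GGGCGG, and 41.5% and 42.3% for CCAAT, and CAGCTG stood at 9.23% and 17.4%. The median GC content was 58.7% and 56.3%. The MEF2 motif was found in 0 of 65 members and 0.583% of genes. The direct repeat bound by the vitamin D receptor, AGGTCA given again after 3 further bases, matched 0 of 65 members and 1 of the 17492 genes. A match of letters is a description and not a binding site, and genes with several promoters were counted once if any matched.

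Many members shared the order of their values across the 6 arrays. The mean deviation of the 80 members from their own means was -0.16, -0.03 and 0.10 on the null arrays and 0.02, 0.17 and -0.10 on the heterozygous arrays. Null replicate 1 was lowest for 42 members and heterozygous replicate 2 was highest for 44. The groups overlapped in this mean, and the same 2 extremes held within complex I, at -0.22 and 0.23, and within ATP synthase, at -0.14 and 0.16. Complex III had them too, at -0.11 and 0.13. Complex II had its highest mean on null replicate 2 instead, at 0.20, and complex IV its lowest on heterozygous replicate 3, at -0.11.

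**Figure D3:**
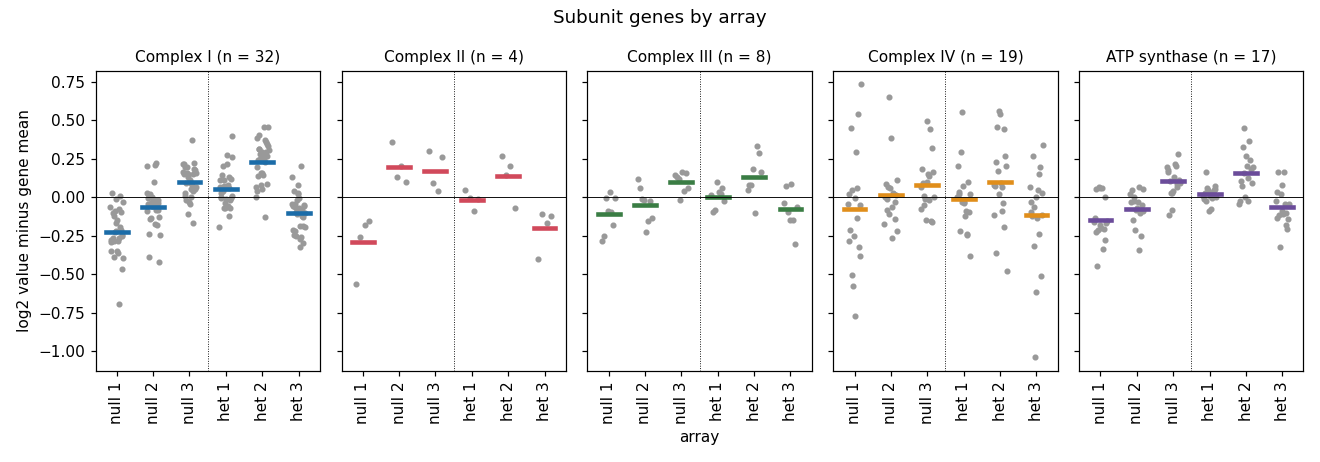
Log2 value of each member minus its own mean over the 6 arrays (vertical axis) on each array (horizontal axis; het, heterozygous), by complex; grey points are genes and coloured bars their means. Complex I means run from -0.22 on null 1 to 0.23 on het 2, and complex IV genes scatter most.

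The marrow-poor arrays stood out in the members as well. Null replicate 1 and heterozygous replicate 3 had the 2 lowest values for 39 of 80 members (48.8%), for 29.5% of the genes at level 10 or above and for 16.5% of all genes. They had the 2 highest values for 4 members (5%), namely Cox6a1, Cox8a, Ndufa4l2 and Atp5g3, against 24.9% of genes at that level and 16.4% of all genes. Without these 2 arrays the members under 0 numbered 47 of 80 and their median difference was -0.057. The share under 0 and the median of all genes in that fit are not given here, so no lean of the members is read from it. In the same fit Ndufs5, Ndufb7 and Cox6a2 had an unadjusted p of 0.046, 0.0462 and 0.0479 in limma. Their adjusted p lay from 0.645 to 0.648, and 9.52% of all genes had an unadjusted p under 0.05 there.

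Skeletal muscle transcripts moved with the members. The 20 muscle contractile genes had mean deviations of -0.47, 0.16 and 0.13 on the null arrays and 0.14, 0.20 and -0.16 on the heterozygous arrays, lowest and highest on the same arrays as the members. They were lowest on null replicate 1 in 18 of 20. All 20 had a difference under 0, with a median of -0.066, 0 at an unadjusted p under 0.05, and none at the level of silent transcripts. The 9 slow fibre genes gave means of -0.03, 0.15 and -0.51 against 0.69, 0.39 and -0.68, a different order that averages unlike genes. Myh7, Myl2 and Myl3 had their 2 lowest values on null replicate 1 and heterozygous replicate 3. Tnni1, Tnnc1, Casq2 and Tpm3 were highest on null replicate 1, and Tnnt1 and Atp2a2 on heterozygous replicate 1. With the muscle mean as a covariate, the members' median difference was -0.017 and 46 of 80 were under 0, with the values of all genes not given here. Macrophage genes ran the other way, with 10 of 10 above 0 (median 0.55, 3 at an unadjusted p under 0.05 in limma, where 2.06% of all genes were called higher) and means from 0.91 on null replicate 1 to -0.77 on heterozygous replicate 2. Endothelial genes were above 0 in 8 of 8 (median 0.26, 1 at an unadjusted p under 0.05), with means from 0.32 on null replicate 3 to -0.39 on heterozygous replicate 2. Of 8 osteoblast genes, 5 were under 0 (median -0.21). At an unadjusted p under 0.05 in limma 2 of them were called, both lower, where 2.43% of all genes were called lower. The part of muscle, marrow, macrophage, endothelial and osteoblast content in the members' values was not tested further. Of 7 brown fat genes, the uncoupling gene Ucp1 (2.72 to 3.11) and Elovl3 lay under the level of silent transcripts on all arrays. Cidea, Dio2, Prdm16, Ppara and the member Cox8b lay above it on all arrays.

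Other mitochondrial genes were taken from lists chosen with earlier results of these data known, and 0 of them passed limma's adjusted test. Most mitochondrial ribosome and assembly factor genes had a difference under 0, against 50.3% of all genes. The share under 0 was smaller in the other mitochondrial lists given below. Of 36 mitochondrial ribosome genes, 30 had a difference under 0 with a median of -0.14, and 4 had an unadjusted p under 0.05 in limma, all lower, where 2.43% of all genes were so called. Mrps30 measured 8.38, 8.30 and 8.18 in null callus, against 8.60, 8.63 and 8.58 in heterozygous mice (difference -0.32, SE 0.10), and Mrps34 differed by -0.33 (SE 0.11). Null values lay below all heterozygous values for both. Of 40 assembly factors, which build the complexes, 32 were under 0 with a median of -0.13, and 4 had an unadjusted p under 0.05, all lower. Among them the complex III factor gene Uqcc2 measured 10.52, 10.46 and 10.45 against 10.96, 11.12 and 10.61 (difference -0.42, SE 0.15), and the complex I factor gene Ndufaf2 differed by -0.24 (SE 0.09).

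Of 13 further subunit and carrier genes, 7 were under 0 with a median of -0.0029. Cox17, a copper chaperone for cytochrome c oxidase, measured 9.57, 9.71 and 9.51 in null callus, against 10.06, 10.44 and 9.74 in heterozygous mice, a difference of -0.48 (SE 0.19) without overlap of the groups. The ATP synthase inhibitor gene Atpif1 differed by 0.17 (SE 0.14). The citric acid cycle list had 14 of 19 genes under 0 and a median of -0.055, with Idh3g at -0.18 (SE 0.12) and Pdhx at -0.32 (SE 0.22), and 17 of its 19 genes were lowest on null replicate 1. In fatty acid oxidation 9 of 14 were under 0, with a median of -0.12. The highest difference was that of Cpt1a, the carnitine transferase that admits fatty acids to the mitochondrion, at 8.32, 8.01 and 8.11 in null callus, against 7.74, 7.16 and 7.76 in heterozygous mice. Its difference of 0.60 (SE 0.19, unadjusted p = 0.0193 and adjusted p = 0.999 in limma) came without overlap of the groups. The carrier gene Slc25a20 differed by -0.37 (SE 0.20).

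The regulators of mitochondrial gene expression were mixed, with 12 of 21 under 0 and a median of -0.086. Tfb1m, a methyltransferase of mitochondrial ribosomal RNA, differed by -0.45 (SE 0.14), and Gabpb1, a partner of GABP, by 0.32 (SE 0.11), each without overlap of the groups. At an unadjusted p under 0.05, 1 gene of this list was lower and 1 was higher, where 2.06% of all genes were called higher. The coactivator gene Ppargc1a, a driver of mitochondrial biogenesis in muscle, was low on the marrow-poor arrays on all 5 of its probe sets. On the brightest of them it measured 6.30, 7.78 and 7.47 in null callus, against 7.24, 8.05 and 7.03 in heterozygous mice. The mitochondrially encoded complex I gene ND5, the only one matched of 26 mitochondrially encoded names, lay between 13.44 and 13.77 and differed by 0.06 (SE 0.12).

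**Figure D4:**
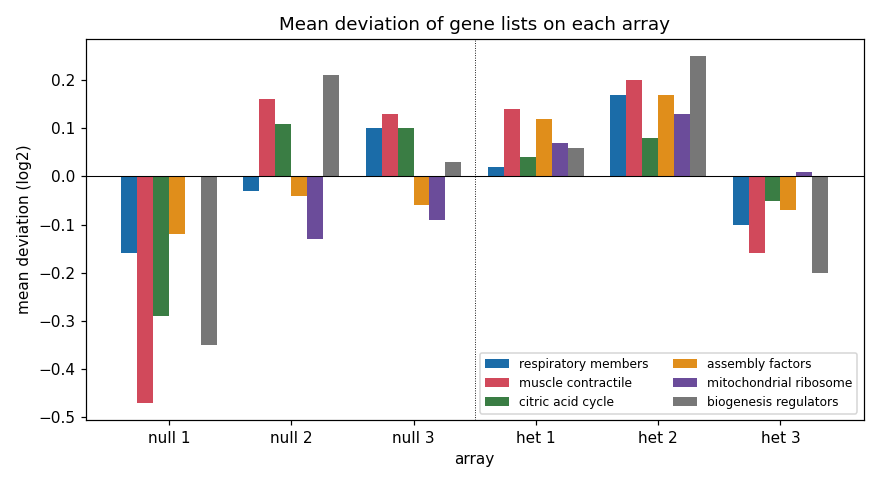
Mean log2 deviation of 6 gene lists from each gene's own mean (vertical axis, bars) on each array (horizontal axis; het, heterozygous). Respiratory members run from -0.16 on null 1 to 0.17 on het 2 and muscle contractile genes from -0.47 to 0.20 on the same arrays; mitochondrial ribosome genes are lowest on null 2, at -0.13.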

How the data were processed

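Values are the authors' deposited log2 expression values, 1 per probe set and array. They were taken to be log2 from their range (1.65 to 14.49). The method of normalisation was not given in the sources used here. Nearly equal array distributions mean that a shift of all genes together would not show. Of 45101 probe sets, 64 controls were left out. Of the 45037 tested, 34945 had 1 gene symbol, 932 several and 9160 none listed. All entered one fit of limma 3.58.1 (R 4.3.3, functions lmFit and eBayes, null minus heterozygous, two-sided, no covariate), with Benjamini-Hochberg adjustment over all of them and a threshold of 0.05. The fit had 4 residual degrees of freedom and a prior of 2.5, and was checked on simulated data. An exact permutation test of 3 arrays against 3 cannot go under a two-sided p of 0.1.

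The members, gene lists and tests were chosen with earlier results of these data known. Values are given for the 3 members of each complex with the lowest unadjusted p, the cytochrome c oxidase isoforms, Ndufa4 and Ndufa4l2, all complex II genes, the core genes Ndufs1, Ndufv1, Uqcrfs1, Uqcrc1, Atp5a1 and Atp5b, and 2 genes with the lowest unadjusted p of each mitochondrial list. Ndufs8, Ndufa10, Ndufb4, Ndufb5, Ndufb7, Cox7b2, Ppargc1a, the other c subunit genes, the tissue markers, the level of silent transcripts, the promoter motifs, the promoters shown and the count of members under 0 were chosen after values were seen. Among 47 members with several probe sets, 13 had a probe set of the other direction.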

Additional observations from a re-analysis of the deposited data

How the results depend on the processing

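No paired analysis was possible because the labels give no replicate numbers or litters shared between the groups. Under every alternative 0 members passed the adjusted test. An adjusted p threshold of 0.25 on the main fit could not change this, because the lowest adjusted p of a member there was 0.999. At an unadjusted p under 0.05 in limma, 1 member (Cox7c) was higher with array weights and with the muscle covariate. With the mean of all probe sets of a gene, and with the probe set of the lowest mean, 1 was lower. Without both marrow-poor arrays 3 were lower, and leaving out single arrays gave 0 to 1 higher and 0 to 5 lower. In the main fit 4.49% of all genes were so called. The share under an alternative is given only for the fit without both marrow-poor arrays, so no excess of members is read from these counts. Members under 0 numbered 38, and complex I members under 0 numbered 19, with array weights, against 39 to 71 and 18 to 32 when single arrays were left out. The lowest counts came without null replicate 1. Of all genes, 51.6% were under 0 with array weights. The shares of all genes when single arrays were left out are not given here, so no lean of the members is read from those counts. Median differences of the members and of each complex moved by less than 1 SD of the array means. Near 0 as they were, they changed sign with array weights for the members (0.0073), complex III (0.012), complex IV (0.032) and ATP synthase (0.0064), and complex IV did so with cyclic loess (0.0076), the muscle covariate (0.029) and without both marrow-poor arrays (0.016).

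Differences near 0 changed sign under some alternatives, and the cause was not tested. Quantile normalisation gave 0.0136 for Atp5b. Cyclic loess gave 0.00263 for Cox6b1, 0.00755 for Cox8b, 0.0203 for Sdhb, 0.0194 for Uqcrfs1 and 0.046 for Atp5b. Median centring gave -0.00404 for Cox7a2l. Array weights gave 0.0461 for Cox8b, 0.0322 for Ndufa4, 0.0483 for Sdhb, 0.0581 for Uqcrfs1, 0.0964 for Uqcrc1 and 0.0731 for Atp5b. The mean of all probe sets gave -0.039 for Sdhc and -0.00838 for Atp5a1. The probe set with the lowest mean gave -0.117 for Sdhc, 0.138 for Uqcrq, 0.00759 for Atp5g2, -0.0827 for Cox8a, -0.00933 for Ndufv1 and -0.101 for Atp5a1. The muscle covariate gave 0.198 for Cox6b2, -0.0561 for Cox7a2l, 0.106 for Cox8b, 0.0244 for Ndufa4, 0.0494 for Sdhb, 0.0466 for Uqcrfs1, 0.00872 for Uqcrc1 and 0.0199 for Atp5b. Without both marrow-poor arrays the values were -0.108 for Cox7a2l, 0.0232 for Ndufa4, 0.0458 for Sdhb, 0.0961 for Uqcrfs1, 0.103 for Uqcrc1 and 0.0827 for Atp5b. Leaving out single arrays gave ranges from -0.586 to 0.223 for Cox6b2, -0.133 to 0.149 for Cox7a2l, -0.0666 to 0.301 for Cox8a, -0.284 to 0.189 for Cox8b, -0.167 to 0.10 for Ndufa4, -0.0927 to 0.104 for Sdhb, -0.0946 to 0.118 for Uqcrfs1, -0.115 to 0.0783 for Uqcrc1, -0.0876 to 0.0633 for Atp5b, -0.0506 to 0.147 for Sdhc, -0.129 to 0.354 for Sdha, -0.215 to 0.482 for Cox7a1, -0.0561 to 0.196 for Ndufs1, -0.00632 to 0.113 for Cox7a2, -0.0539 to 0.119 for Ndufv1, -0.0535 to 0.128 for Atp5a1, -0.103 to 0.0567 for Cox4i2 and -0.0924 to 0.0209 for Cox6b1. Ndufs5 (-0.644 to -0.321), Ndufs4 (-0.508 to -0.214), Ndufa7 (-0.368 to -0.171), Cox6a2 (-0.518 to -0.108) and Cox7c (0.132 to 0.469) kept their sign under every alternative run on them. Values not above the level of silent transcripts, as for Ndufb4 and Cox7b2, give no measure of a difference.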

Other observations

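Cox6b2, known as the testis isoform of subunit 6b, varied more across arrays than any other member. It measured 4.89, 6.12 and 5.32 on the null arrays and 6.02, 6.03 and 4.43 on the heterozygous arrays, a range of 1.69, against a median range of 0.48 over the members and 0.53 over all genes. Its lowest values were on null replicate 1 and heterozygous replicate 3, the arrays poor in marrow transcripts, and its difference between groups was -0.05 (SE 0.51). At the other end, the complex I gene Ndufa10 stayed between 11.01 and 11.10 on all 6 arrays, a range of 0.10. Ndufb5, another complex I gene, measured 10.99, 11.90 and 12.05 in null callus, against 11.81, 11.91 and 11.42 in heterozygous callus, a range of 1.06, so that null replicate 1 stood below the other 5 arrays.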
